A study of Mus musculus with 3 samples.

Results

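The 7 genes described here, of 16390 genes with a named probe, belong to antigen presentation: H2-Aa and Ifi30 of the MHC class II pathway, Ciita and Rfx5, which regulate class II transcription, and B2m, Tap1 and Tap2 of the MHC class I pathway. They were chosen by name, as the probes whose gene symbol in the platform's probe annotation is one of these genes. Each had 1 probe, and each was detected on all 3 arrays. H2-Aa and Ciita are listed there under the older symbols H2Aa and C2ta.

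The populations were sorted by flow cytometry from mice of 1 genotype, an IL-10 Venus reporter, in which a fluorescent protein marks cells that express Il10. Spleen B220+ cells served as the control, and Venus+ CD138hi cells were taken from the spleen and from the bone marrow. All were freshly isolated, with no treatment, and each population was hybridized to 1 single-colour array. The labels do not give the number of mice, their age or any pooling. No Venus-negative CD138hi cells and no marrow B220+ cells were among the samples, so Il10 expression and the CD138hi state cannot be told apart, nor can organ and cell type in the comparison of marrow Venus+ with B220+ cells. With 1 array each, a difference between populations has no replicate check, and the array and the population cannot be told apart.

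MHC class II molecules show peptides from the endosomal pathway to CD4 T cells and are a property of B cells, dendritic cells and macrophages. CIITA switches on their genes without binding DNA itself. It docks on a promoter complex made of the RFX factors, of which RFX5 is a subunit, CREB and the CCAAT-binding factor NF-Y. MHC class I molecules, made of a heavy chain and beta-2-microglobulin, are carried by nearly all nucleated cells and show peptides that the TAP transporter pumps into the endoplasmic reticulum. B cells lose class II expression when they become plasma cells, in which the repressor Blimp-1 (Prdm1) acts on Ciita.

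The promoters of 3 members are shown, those of a class II gene, a class I gene and a regulator. H2-Aa and B2m both hold the short motifs ATTGG and TGACG there, whereas Rfx5 holds only ATTGG, on the opposite strand. On the arrays the signal of H2-Aa was lower, and those of B2m and Rfx5 higher, in Venus+ than in B220+ cells. Of the 7 members, 5 had an entry in the RefSeq promoter table of GRCm38.p6. The 150 bases before the gene start are printed 5′ to 3′ on the strand of the gene. They lie at chr17:34287824-34287973 on the minus strand for H2-Aa, at chr2:122147537-122147686 on the plus strand for B2m and at chr3:94953958-94954107 on the plus strand for Rfx5, all in the flank before the first exon. Capitals mark matches to ATTGG or its reverse CCAAT (the core of the Y box), TGACG with its full palindrome TGACGTCA (the cyclic AMP response element) and GAAA repeated after any pair of bases (GAAA, NN, GAAA: the core of an interferon-stimulated response element).
H2-Aa: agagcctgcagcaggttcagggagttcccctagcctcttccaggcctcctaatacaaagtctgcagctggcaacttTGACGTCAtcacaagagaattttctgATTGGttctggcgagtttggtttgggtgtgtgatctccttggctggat
B2m: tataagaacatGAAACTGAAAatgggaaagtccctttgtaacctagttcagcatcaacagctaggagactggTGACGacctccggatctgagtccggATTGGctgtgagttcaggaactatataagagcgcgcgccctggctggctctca
Rfx5: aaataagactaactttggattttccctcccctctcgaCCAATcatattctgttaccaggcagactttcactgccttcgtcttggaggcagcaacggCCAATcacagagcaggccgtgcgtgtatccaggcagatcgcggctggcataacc

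In H2-Aa, TGACG began at position -74 and ATTGG at -48 from the gene start, 26 bases apart. In B2m they began at -78 and -53, 25 bases apart and in the same order. Each motif was searched on both strands of 32851 promoter windows of 150 bases. ATTGG was in 24.5% of the windows, TGACG in 13.3% and TGACGTCA, which contains TGACG, in 1.36%. The order TGACG then ATTGG on 1 strand, with starts 20 to 30 bases apart, was in 97 windows, or 0.295%. That range was set after these sequences had been read. The interferon element core, in 1.59% of the windows, began at -139 in B2m. Rfx5 held ATTGG on the opposite strand at -54 and -113, Tap1 held TGACG at -86, and Ifi30 held none of these motifs in its window. These matches describe the letters of the reference sequence and say nothing of binding in the sorted cells.

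Signals are normalized intensities, in which the median of the detected probes of each array is 25. The error after ± is the spot error, which combines the spread of blank spots with that of repeated control spots and holds no biological spread. A gene was called higher or lower where both arrays detected it and the signals differed at least 2-fold, a log2 ratio of 1. Fold changes compare a probe with itself on another array. Probes can differ in brightness at the same RNA level, so a sum over a list is a description set mostly by its bright probes.

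H2-Aa, the alpha chain of the class II molecule I-A, had a signal of 19933 ± 1508 on the B220+ array, 6458 ± 373 on the spleen Venus+ array and 644 ± 33.6 on the marrow Venus+ array. It was highest in B220+ and lowest in marrow Venus+ cells, and no 2 arrays overlapped within their spot errors. In bulk samples, fewer cells of a type and less RNA per cell cannot be told apart. The signal was 3.09-fold lower in spleen Venus+ than in B220+ cells (log2 ratio -1.63 ± 0.14). It was 31.0-fold lower in marrow Venus+ than in B220+ cells (-4.95 ± 0.13), where 38 of 10813 genes had a lower ratio. Between the Venus+ populations it was lower in the marrow by a log2 ratio of -3.33 ± 0.11, with 32 of 11352 genes lower. With the local background beside each spot subtracted in place of the blank level, these 2 marrow ratios were -7.49 and -5.80. They rest on a small remainder, as the marrow spot of H2-Aa read 725 and its local background 679. Even in the marrow its spot stood 16.6 times above the detection limit.

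Ifi30 encodes a lysosomal thiol reductase that opens disulfide bonds of proteins on their way to class II loading. Its signal was 2140.1 ± 162 in the control, 356 ± 20.6 in the spleen Venus+ sort and 131 ± 6.94 in the marrow sort. The order of the arrays was that of H2-Aa, but the larger step lay elsewhere. Ifi30 was 6.01-fold lower in spleen Venus+ than in B220+ cells (-2.59 ± 0.14) and 2.71-fold lower in marrow than in spleen Venus+ cells (-1.44 ± 0.11). In the spleen its ratio to B220+ was 1.95-fold below that of H2-Aa, and in the marrow it was 1.90-fold above it.

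Ciita, the class II transactivator, had a signal of 381 ± 28.8 in B220+ cells and, among Venus+ cells, 105 ± 6.14 in the spleen and 30.9 ± 1.99 in the marrow. B220+ cells were highest and marrow Venus+ cells lowest, with no overlap within the spot errors. The signal was 3.62-fold lower in spleen Venus+ (-1.86 ± 0.14) and 12.3-fold lower in marrow Venus+ (-3.63 ± 0.14) than in B220+ cells. It was 3.41-fold lower in marrow than in spleen Venus+ cells (-1.77 ± 0.13). The log2 ratios of H2-Aa and Ciita against B220+ differed by 0.23 ± 0.19 in the spleen, about 1 spot error, with Ciita the lower. Their order turned with quantile normalization (-2.11 for H2-Aa and -1.56 for Ciita) and with the local background (-1.70 and 0.17). It also turned with the normexp background (-1.93 and -1.80), a model-based correction that compresses dim probes. In the marrow H2-Aa lay 2.51-fold further down than Ciita (-1.33 ± 0.20). The marrow spot of Ciita was dim, at 1.69 times the detection limit. With the normexp background the marrow ratios of Ciita were -2.83 against B220+ and -1.03 against spleen Venus+ cells. With the local background the ratios of Ciita to B220+ were 0.17 in the spleen and -1.21 in the marrow. Across spots that local background tracked the spot itself, with a correlation of log values of 0.957 to 0.970 over the 3 arrays.

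Rfx5, the DNA-binding RFX subunit, ran the opposite way to Ciita. Its signal was 9.25 ± 0.97 in B220+ cells, and Venus+ cells had 41.4 ± 2.54 in the spleen and 84.0 ± 4.53 in the marrow. The spot of the B220+ array was dim, at 1.33 times the detection limit, against 2.19 and 2.98 times on the Venus+ arrays. Rfx5 was 4.47-fold higher in spleen Venus+ (2.16 ± 0.18) and 9.08-fold higher in marrow Venus+ (3.18 ± 0.17) than in B220+ cells. It was 2.03-fold higher in marrow than in spleen Venus+ cells (1.02 ± 0.12). With the normexp background the ratios were 0.82 in the spleen, 1.34 in the marrow and 0.52 between the Venus+ populations, so the first and the last were under 2-fold. With the local background they were 1.17, 1.56 and 0.40. The ratios of Ciita and Rfx5 were 16.2-fold apart in the spleen and 112-fold apart in the marrow.

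**Figure D1:**
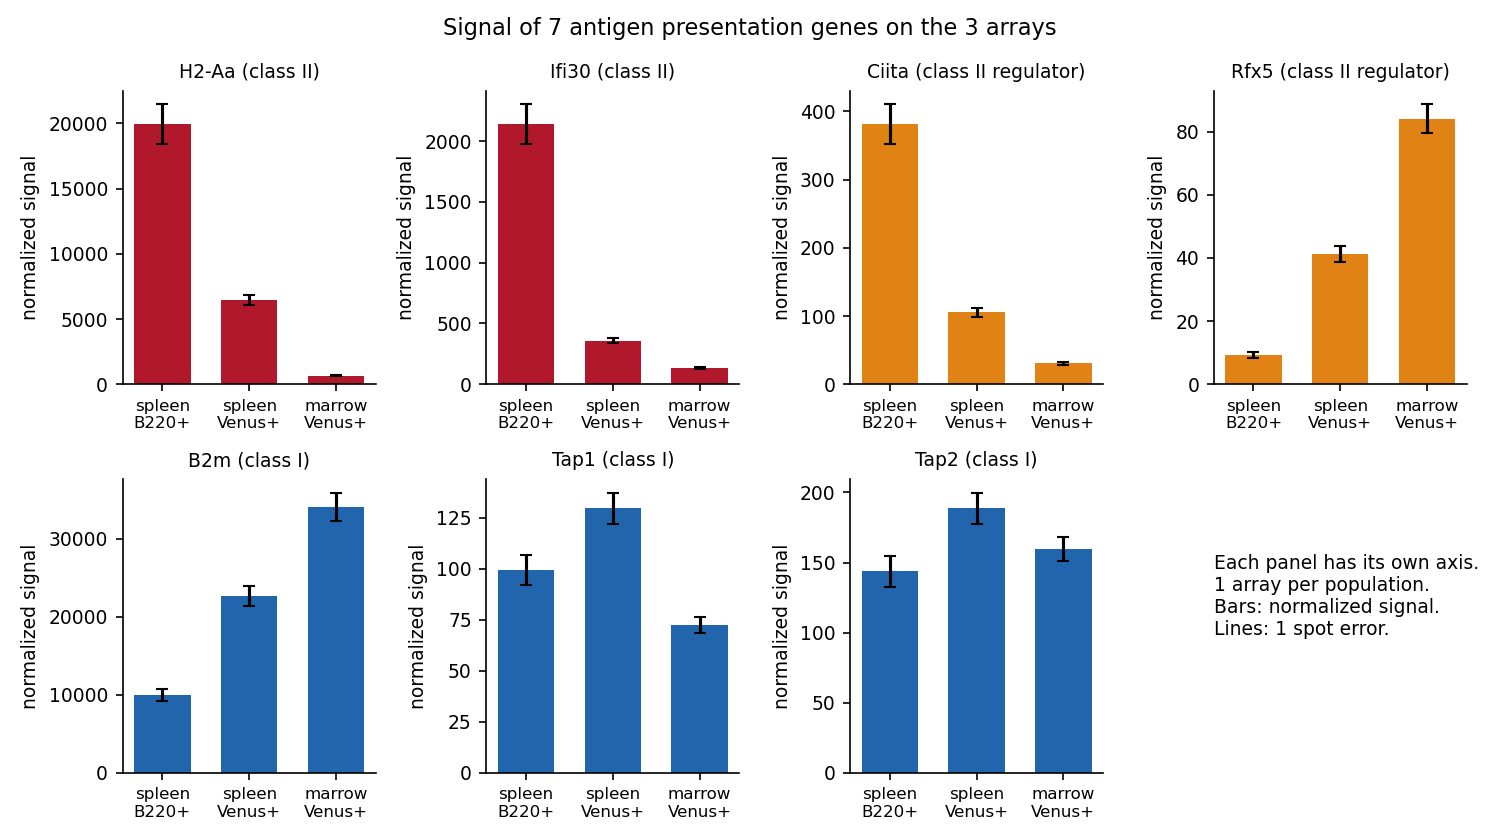
Normalized signal (vertical axis, 1 panel and 1 axis per gene, starting at 0) of the 7 genes in spleen B220+, spleen Venus+ CD138hi and marrow Venus+ CD138hi cells; bars are the signal of 1 array and lines are 1 spot error. H2-Aa, Ifi30 and Ciita step down from B220+ to marrow Venus+ cells, Rfx5 and B2m step up, and Tap1 and Tap2 are highest in spleen Venus+ cells, which for Tap2 turned against the marrow with a scaling to shared probes (0.088).

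B2m encodes beta-2-microglobulin, the shared light chain of class I molecules. Its signal was 10011 ± 757 in B220+ cells, 22638 ± 1306 in Venus+ cells of the spleen and 34060.2 ± 1774 in those of the marrow, and no array overlapped another within the spot errors. The brightest of these spots stood at 55.3% of saturation. B2m was 2.26-fold higher in spleen Venus+ (1.18 ± 0.14) and 3.40-fold higher in marrow Venus+ (1.77 ± 0.13) than in B220+ cells. The spleen ratio was 0.86 with the normexp background, under 2-fold, and with the local background the ratios were 2.17 and 2.71. Between the Venus+ populations its log2 ratio was 0.59 ± 0.11, higher in the marrow but under the 2-fold call.

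Tap1 and Tap2 encode the subunits of the peptide transporter. Tap1 had a signal of 99.4 ± 7.55 in B220+ cells, with 129.6 ± 7.53 and 72.6 ± 3.96 in the spleen and marrow Venus+ sorts. Tap2 had a signal of 144 ± 10.9, 189 ± 10.9 and 159.6 ± 8.39 in the same order. Both were highest in spleen Venus+ cells, although the order of the Venus+ sorts turned for Tap2 with a scaling to shared probes, and neither was called in any of the 3 comparisons. The log2 ratio of Tap1 was 0.38 ± 0.14 in the spleen and -0.45 ± 0.13 in the marrow against B220+, and -0.84 ± 0.11 between marrow and spleen Venus+ cells. The log2 ratio of Tap2 was 0.39 ± 0.14, 0.15 ± 0.13 and -0.24 ± 0.11. For Tap2, marrow Venus+ and B220+ cells differed by 1.13 spot errors. The 2 genes had like ratios in the spleen, 0.01 apart with a spot error of 0.19, and in the marrow Tap1 lay 1.52-fold below Tap2. The direction of Tap1 in the marrow turned with quantile normalization (0.12) and with the local background (2.35, beside 3.19 in the spleen), and scaling to the 75th percentile put it at 0.00013. The marrow ratio of Tap2 against B220+ turned with the normexp background (-0.21), and its ratio between the Venus+ populations turned with a scaling to the probes that all 3 arrays detected (0.088).

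Counted together, 2 members were higher in spleen Venus+ than in B220+ cells, where 15.7% of 11618 genes were called higher, and 3 were lower, where 16.5% were called lower. In marrow Venus+ against B220+ cells 2 were higher and 3 lower, against 22.4% higher and 30.7% lower of 10813 genes. Between marrow and spleen Venus+ cells 1 was higher and 3 were lower, against 4.33% higher and 15.2% lower of 11352 genes. H2-Aa, Ifi30 and Ciita were the lower members in every comparison, Rfx5 was higher in every comparison, and B2m was higher in both comparisons with B220+. The comparisons share arrays, so their counts are not independent of each other.

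Over all genes the log2 ratio had a median of -0.02 in the spleen and -0.24 in the marrow against B220+, and -0.17 between marrow and spleen Venus+ cells. It moved with the scaling, to 0.30 in the spleen with the 75th percentile, and to 0.05 in the marrow and 0.16 between the Venus+ populations with a scaling to shared probes. Of the genes called, 48.8% were higher in the spleen, 42.2% in the marrow and 22.2% between the Venus+ populations. The same shares were 70.2%, 59.6% and 36.0% with the 75th percentile, 46.4%, 53.9% and 57.7% with the shared probes, and 46.6%, 50.8% and 49.9% with quantile normalization. Relative to the median of all genes, H2-Aa stood at -1.61, -4.71 and -3.15, B2m at 1.19, 2.01 and 0.76, and Tap1 at 0.40, -0.21 and -0.66 in the same order.

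A ratio set against another ratio from the same pair of arrays does not move when an array is multiplied by a constant. Measured so, H2-Aa and B2m were 6.98-fold apart in spleen Venus+ against B220+ cells (-2.80 ± 0.19) and 105-fold apart in marrow Venus+ against B220+ cells (-6.72 ± 0.19). They were 15.1-fold apart between the Venus+ populations (-3.92 ± 0.16). Over the members, H2-Aa and Ifi30 lay below B2m, Tap1 and Tap2 in 6 of 6 pairs in each comparison, and the class medians differed by -2.50, -4.64 and -2.14 on the log2 scale. The members were chosen with earlier results of these data known. These pairs and gaps may thus be partly set by that choice and are no independent check. Pairs reuse the same genes and comparisons share arrays, so counts of pairs, here and in the longer lists below, are not independent.

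With longer lists of the pathways the classes lay closer together. Class II had a named probe for 5 of 15 genes, which were H2-Aa, Cd74, Ifi30, Ctss and Lgmn, and class I for 9 of 24, which were B2m, Tap1, Tap2, Tapbp, Tapbpl, Erap1, Pdia3, Calr and Canx. No class I heavy chain and no class II chain other than H2-Aa was among them. The class II median was -0.86 and the class I median 0.53 in the spleen against B220+, a difference of -1.39, or 2.61-fold, with class II lower in 36 of 45 pairs of genes. In the marrow the medians were -0.76 and 0.57, a difference of -1.33 with class II lower in 39 of 45 pairs. Between the Venus+ populations they were -1.26 and 0.04, a difference of -1.30 with class II lower in 30 of 45 pairs, and -0.88 with the local background. Without Calr, Canx and Pdia3, which also fold other glycoproteins, the differences were -1.32, -1.16 and -1.22. The class II list still holds H2-Aa and Ifi30, its lowest genes against B220+. Its other genes, Cd74, Ctss and Lgmn, stood at -0.86, 0.43 and 0.995 in the spleen. In the marrow they stood at -0.76, 1.20 and -0.26.

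Class II genes did not all point the same way. In the spleen 2 of 5 were lower and 0 higher, against 16.5% and 15.7% of all genes. In the marrow 2 were lower and 1 higher, against 30.7% and 22.4%, which is close to those shares. Between the Venus+ populations 3 were lower and 0 higher, against 15.2% and 4.33%. Cd74, the invariant chain that guides class II molecules to the endosome, had a signal of 8763 in B220+, 4843 (spleen) and 5176 (marrow) in Venus+ cells. Its log2 ratios of -0.86 ± 0.14 and -0.76 ± 0.13 were under 2-fold, and the Venus+ populations differed by 0.10 ± 0.11. From spleen to marrow Venus+ cells, then, the log2 ratio was -3.33 for H2-Aa and 0.10 for Cd74. Ctss, the protease cathepsin S that trims the invariant chain, had signals of 2792, 3757 and 6404 and was 2.29-fold higher in marrow Venus+ than in B220+ cells (1.20 ± 0.13). Lgmn, an endosomal asparaginyl endopeptidase, had signals of 225, 448 and 187, just under 2-fold higher in the spleen (1.99-fold) and 2.39-fold lower in marrow than in spleen Venus+ cells.

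All 8 class II regulators had a named probe and were detected on every array. Against B220+, 1 was higher and 4 were lower in spleen Venus+ cells, and 1 was higher and 5 were lower in marrow Venus+ cells. Between the Venus+ populations 1 was higher and 2 were lower. Over all genes 15.7%, 22.4% and 4.33% were higher and 16.5%, 30.7% and 15.2% lower in the same order. Their median log2 ratios were -0.94, -1.34 and -0.38, and Rfx5 was the higher gene each time. Against B220+, its partners in the RFX complex did not share its direction. Rfxank had signals of 82.3, 49.4 and 53.8 (-0.74 ± 0.14 and -0.61 ± 0.14 against B220+), and Rfxap had 190.1, 105 and 102 (-0.86 ± 0.14 and -0.90 ± 0.13), all under 2-fold. Of the NF-Y subunits, Nfya had signals of 73.8, 36.3 and 19.7 and was 2.03-fold and 3.75-fold lower than in B220+ cells. Nfyb was 2.51-fold and 2.96-fold lower, and Nfyc was 1.51-fold lower in the spleen, under the call, and 2.16-fold lower in the marrow. Creb1, the cyclic AMP response element binding protein, was lower too, but dim on all arrays, with signals of 14.6, 5.49 and 2.55 and a marrow ratio of -2.51 ± 0.68.

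The 6 genes for factors known to act on Ciita promoters were read as well. Pax5, an activator in B cells, had a signal of 164 in B220+ and 21.3 in spleen Venus+ cells, 7.73-fold lower, and was not detected in the marrow, at least 69.9-fold lower than in B220+ cells. Irf8 had signals of 848, 127 and 50.2 and was 6.67-fold and 16.9-fold lower. Spi1 was 2.23-fold and 3.80-fold lower. Spib was 1.38-fold lower in the spleen, under the call, and 10.6-fold lower in the marrow, where its signal was 4.33. Prdm1, the gene of the repressor Blimp-1, had signals of 8.72, 81.5 and 34.4 and was 9.35-fold and 3.95-fold higher than in B220+ cells. Irf4 had signals of 321, 1128 and 688 and was 3.52-fold and 2.14-fold higher. Prdm1 was 2.37-fold lower in marrow than in spleen Venus+ cells, and in that comparison Ciita was 3.41-fold lower. The part of these factors in the signal of Ciita was not tested.

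**Figure D2:**
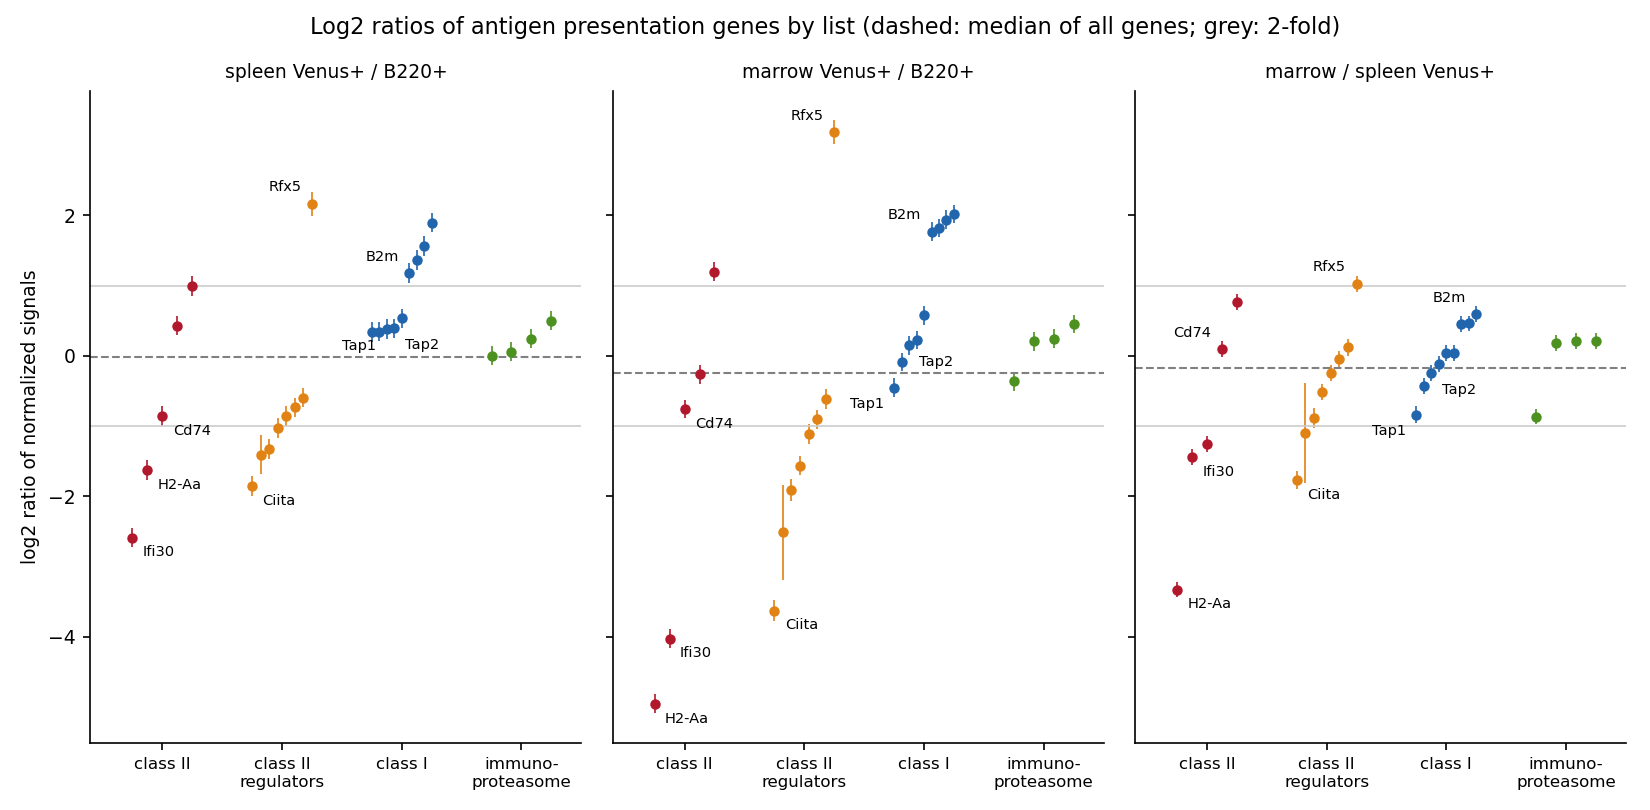
Log2 ratio of normalized signals (vertical axis) of the genes of 4 lists in the 3 comparisons; points are genes sorted by ratio, lines 1 spot error, the dashed line the median of all genes and grey lines 2-fold. Rfx5 stands apart above the other class II regulators in each panel, and H2-Aa is the lowest point in both marrow panels.

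In class I, 4 of 9 genes were higher and 0 lower in both comparisons with B220+, and 0 were called between the Venus+ populations. Over all genes 15.7% and 22.4% were higher and 16.5% and 30.7% lower against B220+, and 19.5% were called either way between the Venus+ populations. The higher genes were B2m and 3 chaperones or editors of the endoplasmic reticulum. Pdia3, which works in the peptide-loading complex, had signals of 269, 1002 and 1030.5 and was 3.72-fold and 3.83-fold higher than in B220+ cells. Calr, the chaperone calreticulin, had signals of 67.4, 199 and 273 and was 2.95-fold and 4.05-fold higher. Tapbpl, a peptide editor, had signals of 119, 305 and 420.1 and was 2.57-fold and 3.53-fold higher. Tapbp, the bridge between TAP and class I, stood at 0.34 and 0.22, Canx at 0.34 and -0.09 and the trimming peptidase Erap1 at 0.53 and 0.57, all under 2-fold.

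The immunoproteasome list holds catalytic subunits, which cut peptides for class I, and subunits of a proteasome activator. Of its 5 genes, 4 had a named probe. Of these, 0 were called in any comparison, against 32.2%, 53.1% and 19.5% of all genes called either way. Psmb8 had signals of 2587, 2692 and 3063, Psmb9 of 987, 1169 and 1348 and Psmb10 of 756, 756 and 873. Psme1, an activator subunit, had signals of 836, 1182 and 649. The largest ratio among them was -0.87 ± 0.11, that of Psme1 between marrow and spleen Venus+ cells. Of the class I regulators with a named probe, Nlrc5, the class I counterpart of CIITA, was dim at 9.75, 10.6 and 12.6 and stood at 0.13 ± 0.21 and 0.37 ± 0.21. Irf1 had signals of 730.2, 348 and 271 and was 2.10-fold and 2.69-fold lower than in B220+ cells. Irf2 had signals of 29.8, 21.1 and 10.7 and was 1.41-fold lower in the spleen, under the call, and 2.79-fold lower in the marrow.

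The plasma cell and B cell markers went with the labels of the sorts. All 4 plasma cell markers measured on every array were higher in both Venus+ populations than in B220+ cells. Over all genes 15.7% were higher in the spleen and 22.4% in the marrow. Sdc1, which encodes CD138, had signals of 2.49, 127.9 and 219.5, and Xbp1, a factor of the secretory programme, had 354, 7174 and 8402. Tnfrsf17 was detected in the Venus+ cells, at 1435 and 2936, and not in B220+ cells. Of 7 B cell markers with a named probe, 6 were detected on all arrays and were lower in both Venus+ populations, against 16.5% (spleen) and 30.7% (marrow) of all genes. Ms4a1 (CD20) had signals of 10149, 2619 and 334, Cd22 had 832, 119 and 38.0, and Cd72 had 919, 434 and 8.17. Fcer2a, with 349, 62.4 and 166, was higher in marrow than in spleen Venus+ cells, and Cr2 was detected in B220+ cells alone, at 102. The summed signal of the B cell list, in which bright probes weigh most, was 28380, 10562 and 4214 and so ran in the direction of H2-Aa, Ifi30 and Ciita. The part of this in the class II results was not tested.

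Dendritic cells and macrophages also carry class II. The dendritic cell list, with 10 named probes, had 7, 6 and 5 detected genes in B220+, spleen Venus+ and marrow Venus+ cells and summed to 474, 216 and 260.3. Most of each sum came from Bst2, at 105, 101 and 213, together with Ccr7 where it was detected. Itgax, Xcr1 and Clec9a were not detected on any array, while Flt3, Zbtb46, Batf3, Siglech and Bst2 were detected on all. Flt3 was 4.15-fold and 3.69-fold higher in the Venus+ populations than in B220+ cells, at signals of 3.42, 14.2 and 12.6, and Bst2 was 2.03-fold higher in the marrow. Ccr7 had signals of 303 and 65.3 in B220+ and spleen Venus+ cells and was not detected in the marrow, and Siglech was 3.25-fold and 3.22-fold lower. The monocyte and macrophage list, with 9 named probes, had 7, 3 and 4 detected genes and summed to 80.7, 142 and 273. Cd14 and Mertk were not detected on any array, Adgre1, C1qa and Vsig4 were detected in B220+ cells alone at 9.38 or less, and Csf1r stood at 23.8, 24.9 and 27.3. Cd68 was 3.37-fold and 7.30-fold higher in the Venus+ cells, and C1qb was 1.60-fold and 3.04-fold lower. Cd68, with signals of 33.0, 111 and 241, made up most of the sum on both Venus+ arrays.

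Neutrophil markers summed to 4917, 14.5 and 199. S100a9 had 2552 in B220+ and 69.4 in marrow Venus+ cells and was not detected in spleen Venus+ cells, whereas Mpo was higher in the marrow, at 29.8 against 2.22 in B220+ cells. T cell markers summed to 27.3, 716 and 1087. Cd247, with signals of 15.7, 637 and 1038, made up most of the sum on both Venus+ arrays. Cd4 and Cd8a were dim on all arrays. Against B220+, the log2 ratio of Cd4 was 0.72 ± 0.23 in the spleen and 1.18 ± 0.23 in the marrow. That of Cd8a was -0.17 ± 0.37 in the spleen and 0.54 ± 0.33 in the marrow. Cd3e and Cd3g were not detected in B220+ cells, and from spleen to marrow Venus+ cells Cd3e went from 7.55 to 17.8 and Cd3g from 55.7 to 8.95. The part of these lists in the members' ratios was not tested.

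Among 10768 genes detected on all 3 arrays, likeness to a member was measured as the distance between the pair of log2 ratios against B220+. The genes nearest H2-Aa were Siglecg (-1.73 and -4.82), Rbm38 (-1.71 and -4.64) and Ms4a1 (-1.95 and -4.93), and 5 genes lay within a distance of 0.5. For Ifi30 they were Myo1c, Rmi1 and Pold1, among 50 within that distance. For Ciita they were Xpo1, Lpcat1 and Wsb1, among 127. For Rfx5 they were Retsat, Sil1 and Otor, among 151. B2m had 686 genes within 0.5, with Brsk2, Hk3 and Rtn4rl2 nearest, Tap1 had 984, with Eprs, Srsf4 and Hivep1, and Tap2 had 1606, with Clasrp, Fam168a and Exoc3l. Of the 7, H2-Aa had the fewest genes within 0.5 and Tap2 the most. Such a count falls with distance from the bulk of all genes, so it partly restates the size of the ratios.

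**Figure D3:**
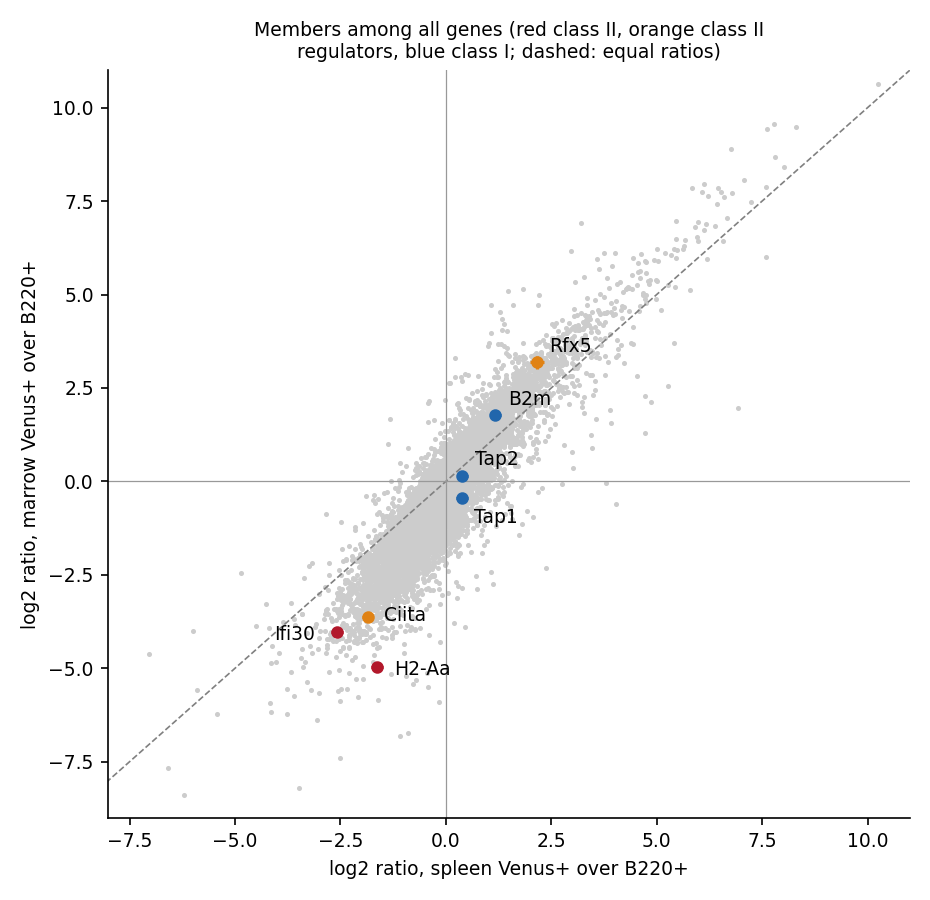
Log2 ratio of marrow Venus+ over B220+ (vertical axis) against log2 ratio of spleen Venus+ over B220+ (horizontal axis) for the genes detected on all 3 arrays (grey) and the 7 members (coloured by role); the dashed line marks equal ratios. Both axes share the B220+ array. H2-Aa lies well under the dashed line, at -1.63 and -4.95, and Rfx5 and B2m lie above it.

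**Figure D4:**
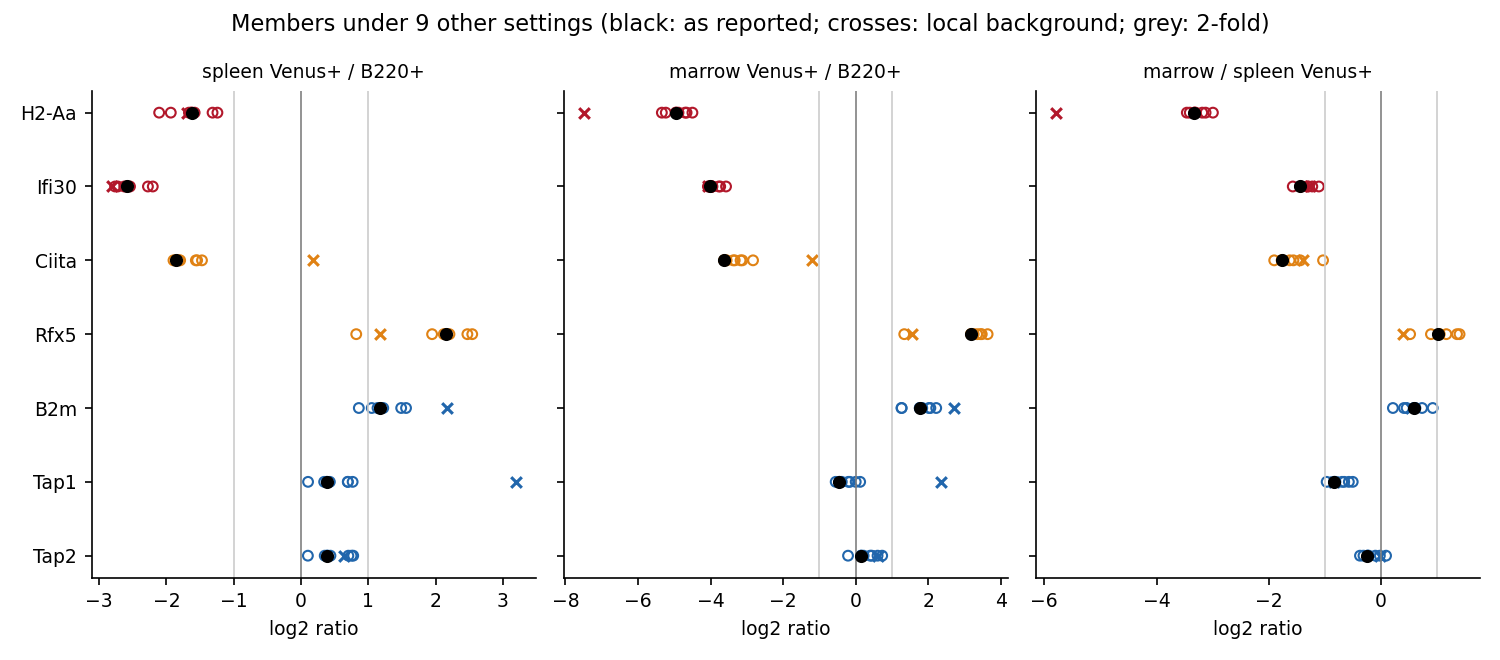
Log2 ratio (horizontal axis) of each member in the 3 comparisons as reported (black) and under 9 other settings (open circles, crosses for the local background); grey lines mark 2-fold. The spleen ratio of Ciita crosses 0 with the local background alone, at 0.17, while H2-Aa and Ifi30 stay past 2-fold in every setting plotted.

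Under the 9 other settings, 14 of the 21 ratios of the members, those past 2-fold as reported, kept their direction in 13 cases and stayed past 2-fold in 10. The exception in direction was Ciita in the spleen with the local background. Not all settings could move a ratio. The mean of detected probes is the same value for a member with 1 probe, and the deposited table follows the recipe rebuilt here.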

How the data were processed

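Total RNA from sorted spleen B220+, spleen Venus+ CD138hi and marrow Venus+ CD138hi cells was hybridized with Cy5 label to Toray 3D-Gene arrays, 1 per population. Per the file headers, the authors deposited scanner files with the median intensity of each spot and a local background, together with a table of normalized intensities. The design text states that the authors took off the mean of the blank spots and set the median detected signal to 25. That recipe, rebuilt from the scanner files with the middle 90% of 2736 blank spots and a limit of 2 SD above their mean, gave detection calls that differed from the deposited table for 0 probes on each array. The table is linear and uncentred, and its column medians are 25. Detected probes numbered 16917, 17239 and 15857 of 23473 in B220+, spleen Venus+ and marrow Venus+ cells. Faulty spots (0, 1 and 2) and control spots were left out.

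Of the probes, 16631 had 1 gene symbol and 6842, without one, stay unnamed. In the RefSeq table of GRCm38.p6, 12622 symbols were current and 3947 were updated through a synonym. A gene with several probes was read from its brightest. No test was made, because each population has 1 array, and precision is limited by that number. A gene detected on 1 array gets a bound against the higher of the lowest detected signal and the probe's own signal on the dim array. The members and gene lists were chosen with earlier results of these data known. Named are the members, from each pathway list the genes with the 3 largest and 3 smallest ratios in a comparison and those detected on 1 array, and the 3 genes nearest each member. Erap1 lies outside this rule and was named after its values were seen. Of the marker lists, which the rule also covers, only some of these genes are named, chosen after their values were seen, and counts and sums stand for the rest.

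Alternatives were a normexp background (limma 3.58.1 in R 4.3.3, offset 50), the local background, other scalings and detection limits, the deposited table, the mean of detected probes and other class lists. Other steps ran in Python 3.11.15 and were tested on simulated data.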

Additional observations from a re-analysis of the deposited data

Results flagged for a closer look

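Tap1 had ratios of opposite sign in the Venus+ populations. Its log2 ratio against B220+ cells was 0.38 in the spleen and -0.45 in the marrow, with spot errors of 0.14 and 0.13. Both were under 2-fold, and both use the same B220+ array. With 1 array per population the difference between them was not tested. Tap2, the other subunit of the transporter, was at 0.39 and 0.15.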

How the results depend on the processing

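The only change in direction among ratios past 2-fold was Ciita in spleen Venus+ against B220+, at 0.17 with the local background, which tracks the spot itself; the cause was not tested for this or any value below. No replicate could be left out, and no paired analysis was possible because each population has 1 array. Values are log2 unless they are counts, and list medians are relative to all genes.

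In spleen Venus+ against B220+, the normexp background gave Rfx5 0.82, B2m 0.86, a class II median of -1.20, an immunoproteasome median of -0.19, 0 class II regulators higher and 2 lower, 2 class I genes higher, and 410 genes higher and 1174 lower. The local background gave Tap1 3.19, class I 1.36, Ciita promoter factors -1.31, 1 class II gene higher, 2 class II regulators lower and 1 immunoproteasome gene higher. Of all genes it put 1565 higher and 1922 lower. Quantile normalization gave class II -1.13. Genes higher and lower numbered 2727 and 1156 with the 75th percentile and 2450 and 1029 with a limit set on spots without a probe (no-probe limit). They numbered 1538 and 1764 with quantile normalization and 1544 and 1657 with the limit of 4 SD. The no-probe limit, the 75th percentile, quantile normalization and the limit of 4 SD put 1 class II gene higher. The first 3 of these put 0 class I regulators lower, and the no-probe limit put 2 class II regulators lower.

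In marrow Venus+ against B220+, the normexp background gave Tap2 -0.21, class II -1.18, class II regulators -0.94, immunoproteasome -0.18, class I regulators -0.36, Ciita promoter factors -0.87, 0 class II genes and 0 Ciita promoter factors higher, 1 class I regulator lower, and 578 genes higher and 2143 lower. The local background gave Tap1 2.35, class II regulators -0.61, class I 2.06, class I regulators -0.86, Ciita promoter factors -0.53, 3 class II regulators and 1 class I gene lower, and 2 immunoproteasome genes and 1 Ciita promoter factor higher. Quantile normalization gave Tap1 0.12, class II regulators -0.76, class I 1.06, 0 class II genes higher and 3 class II regulators lower. The 75th percentile gave Tap1 0.00013 and 1 class I regulator lower. The no-probe limit gave class II regulators -0.81, with 3 lower. The limit of 4 SD gave class II regulators -0.84 and Ciita promoter factors -0.14. Genes higher and lower numbered 1713 and 3061 with the local background and 2690 and 2609 with quantile normalization. They numbered 3383 and 2293 with the 75th percentile and 2451 and 2541 with the no-probe limit.

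Between marrow and spleen Venus+ cells, Rfx5 was 0.52 with the normexp background, 0.40 with the local background and 0.89 with the no-probe limit, each with 0 class II regulators higher. Tap2 was 0.088 with shared probes. The local background gave class II minus class I -0.88, class II -0.72, class II regulators 0.34, Ciita promoter factors -0.67, 778 genes higher, 1 class II gene, 1 immunoproteasome gene and 1 Ciita promoter factor higher, and 1 class I and 1 immunoproteasome gene lower. Ciita promoter factors were -0.67 with the normexp background, with 0 lower, and -0.84 with 4 SD. Class II regulators had 1 lower with the normexp background, shared probes, the 75th percentile, quantile normalization and 4 SD. Shared probes put 1 class II gene higher, and the no-probe limit 1 class I regulator lower. Genes higher and lower numbered 62 and 315 with the normexp background, 1250 and 916 with shared probes, and 1128 and 1132 with quantile normalization. They numbered 738 and 1313 with the 75th percentile, 406 and 1382 with 4 SD, and 350 and 1978 with the no-probe limit. With the local background 1936 genes were lower. Signal over background limits ratios that rest on a dim spot, among them those of Rfx5, Prdm1, Sdc1, Creb1, Nlrc5 and Spib and the marrow ratios of Ciita.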
